A study of Mus musculus with 10 samples.

Results

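The microRNA silencing machinery was followed through the peak lists of m6A and YTHDC1 binding in male embryonic stem cells derived from 129 mice. It was taken as 10 genes of 34614 genes (protein-coding genes plus lncRNA genes): Drosha, Dgcr8, Xpo5, Dicer1, Ago1, Ago2, Ago3, Tnrc6a, Tnrc6b and Tnrc6c. The genes were selected by name, with earlier results of these data known, and their peaks were those whose midpoint lay in the RefSeq gene span on mm10. That gave 16 of 6764 m6A peaks of Mettl3 knockout cells, 26 of 12368 m6A peaks of Mettl3 wild-type cells and 45 of 30992 peaks of YTHDC1 RNA immunoprecipitation (RIP). Because the choice used these lists, the counts below describe the genes and test nothing.

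The machinery works in steps. In the nucleus DROSHA, a ribonuclease III, and its RNA-binding partner DGCR8 form Microprocessor, which cuts hairpins out of primary microRNA transcripts. Exportin-5, encoded by Xpo5, carries the hairpins to the cytoplasm, where Dicer cuts them again. An Argonaute protein then holds one strand as a guide, and the TNRC6 (GW182) scaffolds link Argonaute to the deadenylase complexes that silence the target messenger RNA. Mouse embryonic stem cells without Dgcr8 or Dicer1 are known to be viable but to fail in differentiation. METTL3 is the catalytic subunit of the nuclear m6A writer and YTHDC1 the nuclear m6A reader, and in human cells m6A has been reported to mark primary microRNAs for DGCR8.

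The 10 samples all came from embryonic stem cells kept without feeders in serum and LIF. Titled Mettl3-KO were 2 m6A precipitates and 2 inputs, and titled Mettl3-WT were 2 precipitates and 2 inputs, all of polyA RNA. The remaining 2 were a pull-down of YTHDC1 from Halo-Ythdc1 knockin cells and its input, both of total RNA that was not fragmented. How the Mettl3 knockout was made, and whether it was 1 clone, is not given in the sources used here, and the cell type entry of all 8 m6A samples, knockout ones included, names wild-type cells. A Halo-GFP pull-down named in the protocol was not analysed here. The authors' 3 lists give chromosome, start and end, with no height, strand, read depth or value per replicate, so no difference below could be set against a spread between samples. Of the 2 knockout precipitates, the label of 1 names the knockout list and that of the other names the wild-type list. Median peak width was 250 bp in the knockout list, 400 bp in the wild-type list and 203 bp in the RIP list. Of 10 embryonic stem cell marker genes, 8 had a knockout m6A peak, 8 a wild-type m6A peak and 7 a RIP peak, and Dppa5a had none, while the 4 mesoderm and 4 endoderm markers had no peak in any list. Peaks of 2 of 4 fibroblast markers (Col1a1 and Col1a2 had none), 2 of 4 trophoblast and all 4 neuroectoderm markers were found, and what this says about the cells was not tested.

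Most of the machinery genes carried both m6A and RIP peaks. A knockout m6A peak lay in 6 of the 10 genes (exact 95% binomial interval 26.2 to 87.8%), against 17.7% of 21887 protein-coding genes. A wild-type m6A peak lay in 8 (44.4 to 97.5%), against 29.5%, and a RIP peak in 8, against 41.6%. In all 3 lists were 5 genes (18.7 to 81.3%), namely Tnrc6a, Ago2, Drosha, Dgcr8 and Dicer1, against 8.86% of protein-coding genes. That is 1939 genes, beside 11168 with a peak in any list. Only Ago3 had no peak in any list, against 49.0%. The machinery genes are long, with a median span of 94000 bp against 17169 bp for protein-coding genes. Among protein-coding genes at least as long as the shortest of the 10, which is Ago1 with 33696 bp, 19.8% had a knockout peak, 38.1% a wild-type peak and 60.6% a RIP peak. The knockout and wild-type shares of these long genes lie below the intervals of the 10 genes, and the RIP share lies inside. Among protein-coding genes with a peak in any list the shares were 34.8, 57.7 and 81.5%, all inside the intervals of the 10 genes. The intervals cover counting error only, and expression, which these files do not hold, was not tested as a part of these counts.

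**Figure D1:**
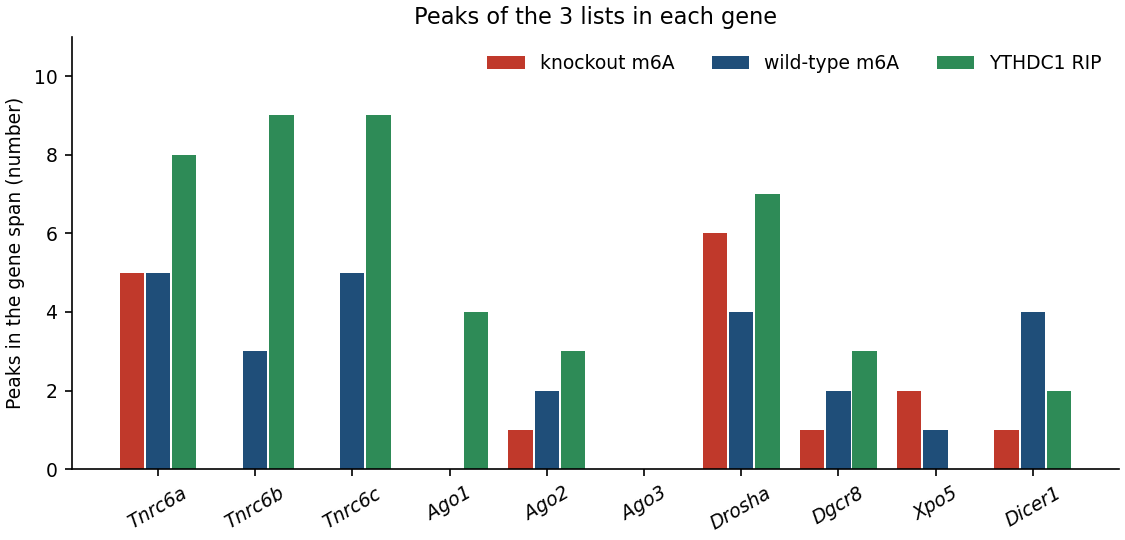
Number of peaks whose midpoint lay in each gene span, for the knockout m6A, wild-type m6A and YTHDC1 RIP lists. Tnrc6b and Tnrc6c had no knockout peak beside 3 and 5 wild-type peaks, Drosha had 6 knockout and 4 wild-type peaks, Ago1 had RIP peaks alone, and Ago3 had none.

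By genotype the genes fell into 3 patterns. Tnrc6b and Tnrc6c had wild-type peaks and no knockout peak, 2 of 10 genes against 18.4% of protein-coding genes. Tnrc6a, Ago2, Drosha, Dgcr8, Xpo5 and Dicer1 had peaks in both m6A lists, 6 of 10 (26.2 to 87.8%) against 11.1%. That 11.1% is 2430 protein-coding genes, beside 11168 with a peak in any list. Ago1 and Ago3 had no m6A peak in either list. No gene had a knockout peak without a wild-type peak, 0 of 10 (interval up to 30.8%) against 6.63%. With peaks under the median width of their list left out, Ago2 and Dicer1 joined Tnrc6b and Tnrc6c, since their knockout peaks were 200 bp wide, and the count was 4. A gene with peaks in both lists did not need to have them at the same place. All overlaps between the genotypes lay in Drosha. In the other genes 0 of 10 knockout peaks overlapped a wild-type peak, and 0 of 22 wild-type peaks a knockout peak. Drosha was set apart after its overlaps were seen, so these zeros follow from that choice and carry no interval. With Drosha the counts were 4 of 16 knockout peaks, against 21.4% of 6473 knockout peaks in gene spans, and 4 of 26 wild-type peaks, against 11.6% of 11788. Both shares over all genes lie inside the intervals of the 10 genes, 7.27 to 52.4% and 4.36 to 34.9%.

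Drosha, the nuclease of Microprocessor, had a knockout peak over each of its wild-type m6A peaks. The knockout list held 6 peaks in its span (chr15:12824804-12935291, plus strand), of 200, 250, 200, 850, 200 and 400 bp from the 5′ to the 3′ end. The wild-type list held 4 peaks, of 200, 200, 700 and 150 bp, and each of them overlapped a knockout peak. The first peak, chr15:12824801-12825000, was identical in the 2 lists and lay on the start of the gene. The second began at 12826001 in both lists and ended at 12826250 in knockout and 12826200 in wild-type cells. The widest began at 12833751 in both and ended at 12834600 in knockout and 12834450 in wild-type cells. At 850 bp the knockout peak was the wider one and ranked 24 by width among all 6764 knockout peaks, while the 700 bp wild-type peak ranked 2484 among 12368. The last peak ended at 12935300 in both lists and began at 12934901 in knockout and 12935151 in wild-type cells, at the 3′ end of the gene. Of the 4 overlapping pairs 3 began at the same base (75%, interval 19.4 to 99.4%), against 494 of 1404 such pairs over all genes (35.2%, 32.7 to 37.7%), a share inside the interval of the 4 pairs. The starts and ends of both m6A lists lie on a 50 bp grid. The other 2 knockout peaks, at 2.21 and 94.9% of the span from the 5′ end, had no wild-type counterpart. What the knockout peaks hold, m6A or another signal, was not tested.

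**Figure D2:**
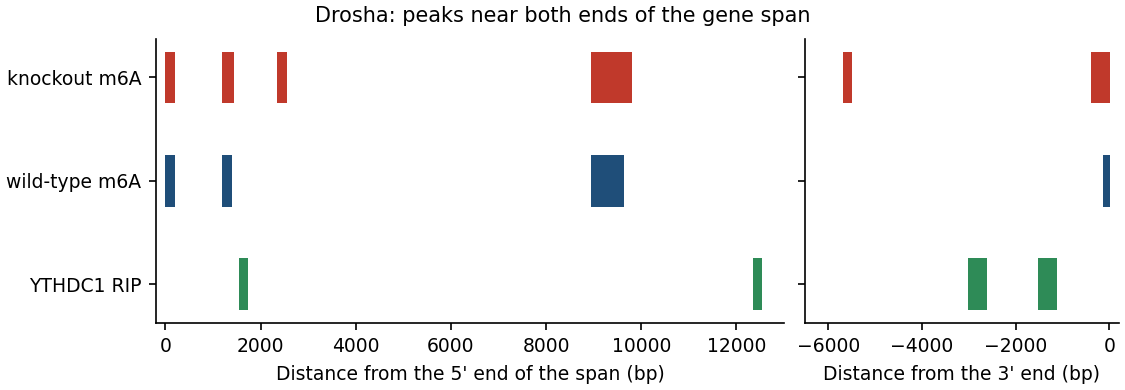
Peaks in Drosha near the 5′ end (left) and the 3′ end (right) of the gene span, in bp from that end, one row per list, bar length to scale. Each of the 4 wild-type peaks lies under a knockout peak, and no RIP peak overlaps either.

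The RIP list held 7 peaks in Drosha, 74 to 513 bp wide, and none overlapped an m6A peak. The nearest lay 92 bp beyond the second knockout peak and 142 bp beyond its wild-type counterpart. The base sequence at the shared start peak is shown because the same 200 bp were listed in both genotypes. RefSeq's promoter window (GRCm38.p6, chr15:12824565-12824864, plus strand) runs from 250 bases before to 50 bases after the listed start, and the 64 bases inside the peak are in capitals.
Drosha: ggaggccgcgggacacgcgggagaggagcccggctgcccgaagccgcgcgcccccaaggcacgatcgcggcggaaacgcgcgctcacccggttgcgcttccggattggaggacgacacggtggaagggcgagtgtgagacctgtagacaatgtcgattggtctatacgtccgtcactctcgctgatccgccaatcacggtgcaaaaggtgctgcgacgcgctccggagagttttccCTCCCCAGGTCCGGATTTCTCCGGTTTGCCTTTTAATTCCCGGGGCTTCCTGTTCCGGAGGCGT
The letters GGAC, a core of the sequence in which METTL3 methylates the A, occur 2 times in this window, both before the peak, and GTCC, the same on the other strand, 2 times. Over all 32851 promoter windows 65.6% hold GGAC on their own strand and 66.1% on the other.

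Dgcr8, the RNA-binding subunit of Microprocessor, carried its widest m6A peak on the hairpins of 2 microRNAs. Its own messenger RNA holds hairpins that Microprocessor is known to cut, which lowers Dgcr8 expression. The knockout list held 1 peak in the gene (chr16:18283101-18283350, 250 bp), and it overlapped neither hairpin. The wild-type list held a peak of 650 bp at chr16:18284051-18284700, 700 bp away from the knockout peak towards the 5′ end, and the hairpins of miR-1306 (79 bases) and miR-3618 (88 bases) lie wholly inside it, on the strand of Dgcr8. A second wild-type peak of 300 bp lay at 96.2% of the span from the 5′ end. Among 1005 mouse microRNA hairpins in the RefSeq table, 0.995% overlapped a knockout peak, 1.89% a wild-type peak and 4.08% a RIP peak. Of the 18 wild-type peaks that overlapped a hairpin, the Dgcr8 peak was the 1 that overlapped more than 1.

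The hairpins under the Dgcr8 peak are printed 5′ to 3′ as RNA with the mature strands in capitals (RefSeq, GRCm38.p6, chr16, minus strand). The hairpin of miR-3618 comes first in the transcript.
miR-3618 hairpin (chr16:18284550-18284637): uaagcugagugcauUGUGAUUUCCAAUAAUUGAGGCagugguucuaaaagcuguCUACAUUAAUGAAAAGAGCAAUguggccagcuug
miR-1306 hairpin (chr16:18284239-18284317): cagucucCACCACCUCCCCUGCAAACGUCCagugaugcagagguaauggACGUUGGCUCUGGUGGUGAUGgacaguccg
Their mature strands follow with the seed, bases 2 to 8, in capitals.
miR-3618-5p: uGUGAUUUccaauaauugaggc
miR-3618-3p: cUACAUUAaugaaaagagcaau
miR-1306-5p: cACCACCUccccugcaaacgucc
miR-1306-3p: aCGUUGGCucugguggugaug
No seed was shared among these 4 or with any other of the 1679 mature microRNAs in the table. The letters GGAC occur 2 times in the miR-1306 hairpin and 0 times in that of miR-3618, and GUCC, the same on the other strand, 2 and 0 times. Of all hairpins 24.5% hold GGAC at least once and 3.48% at least 2 times, and 24.4% hold GUCC. The peak spans 650 bp, so which of its bases gave the signal cannot be told from the list.

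**Figure D3:**
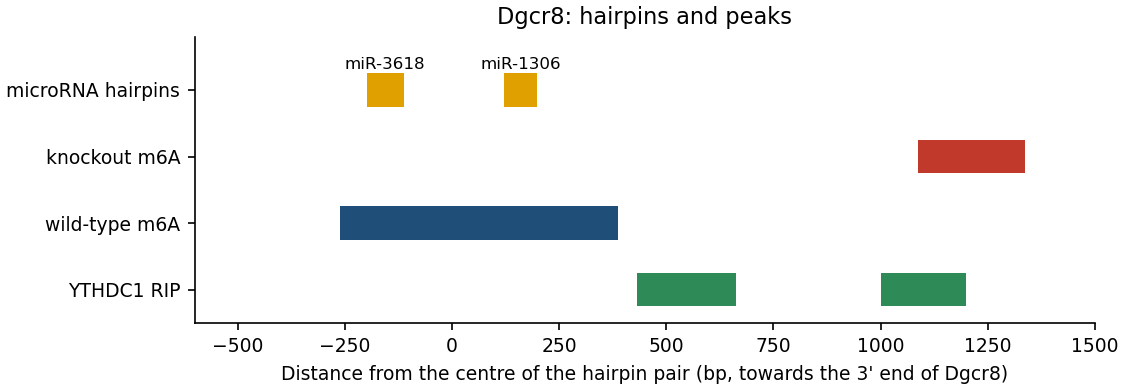
Hairpins of miR-3618 and miR-1306 and the peaks near them in Dgcr8, in bp from the centre of the hairpin pair, positive towards the 3′ end of the gene. The knockout peak and the RIP peaks lie further towards the 3′ end than the wild-type peak, which covers both hairpins.

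No RIP peak in Dgcr8 overlapped the wild-type peak over the hairpins. RIP RNA was not fragmented, so these peaks do not tell where on the RNA YTHDC1 was bound. Dgcr8 had 3 RIP peaks, of 200, 200 and 233 bp. The widest (chr16:18283775-18284007) ended 43 bp from the wild-type peak, on the side of the 3′ end, and 231 bp from the miR-1306 hairpin. The next (chr16:18283239-18283438) overlapped the knockout peak by 112 bp. The last lay at 83.9% of the span. The span of Trmt2a, on the other strand, overlaps that of Dgcr8 at its 3′ end, and no peak of Dgcr8 touched it.

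Xpo5, which encodes the export receptor of the hairpins, had 2 knockout m6A peaks, 1 wild-type m6A peak and no RIP peak. The knockout peaks were 300 bp wide on the start of the gene (chr17:46202751-46203050) and 250 bp wide at 81.3% of the span. The wild-type peak was 550 bp wide (chr17:46242151-46242700), with its midpoint 1172.5 bp from the 3′ end. The m6A peaks of the 2 genotypes were thus at different places, with at least 6050 bp between them. The nearest RIP peak lay 753 bp outside the gene span. The span of Xpo5 also holds the hairpin of miR-693, which no peak overlapped, the nearest being a knockout peak at a distance of 4231 bp.

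The start of Xpo5 is shown for comparison with that of Drosha, as a start with a knockout peak and no wild-type peak (GRCm38.p6, chr17:46202561-46202860, plus strand, the 110 bases inside the knockout peak in capitals).
Xpo5: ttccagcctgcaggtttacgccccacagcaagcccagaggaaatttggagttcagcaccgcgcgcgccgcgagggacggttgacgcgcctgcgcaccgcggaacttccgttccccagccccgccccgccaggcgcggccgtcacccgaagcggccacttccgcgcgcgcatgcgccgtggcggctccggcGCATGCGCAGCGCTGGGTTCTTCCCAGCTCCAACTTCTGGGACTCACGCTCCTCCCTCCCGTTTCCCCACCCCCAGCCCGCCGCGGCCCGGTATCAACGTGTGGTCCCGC
GGAC occurs 2 times in this window, 1 of them inside the peak, and GTCC 1 time. Of the 9 genes with a listed promoter window, a knockout peak touched the window of 2, Drosha and Xpo5, and a wild-type peak that of Drosha. Over 17492 protein-coding genes with a window these shares were 13% and 3.8%.

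Dicer1, the cytoplasmic nuclease, had 1 knockout m6A peak and 4 wild-type m6A peaks. The knockout peak of 200 bp (chr12:104729101-104729300) lay at 35.4% of the span from the 5′ end. The wild-type peaks lay at 76.6, 85.9, 89.1 and 98.9% of the span and were 850, 850, 150 and 300 bp wide. All 4 thus lay further towards the 3′ end than the knockout peak, and the nearest was 25900 bp from the knockout peak. The 850 bp peaks (chr12:104702351-104703200 and chr12:104696351-104697200) were the widest m6A peaks among the processing genes in wild-type cells. Dicer1 had 2 RIP peaks, of 200 and 369 bp, and neither overlapped an m6A peak. One of them (chr12:104751766-104751965) lay on the start of the gene, where no m6A peak was listed. The promoter window there (GRCm38.p6, chr12:104751903-104752202, minus strand) is shown with the 63 bases inside the RIP peak in capitals.
Dicer1: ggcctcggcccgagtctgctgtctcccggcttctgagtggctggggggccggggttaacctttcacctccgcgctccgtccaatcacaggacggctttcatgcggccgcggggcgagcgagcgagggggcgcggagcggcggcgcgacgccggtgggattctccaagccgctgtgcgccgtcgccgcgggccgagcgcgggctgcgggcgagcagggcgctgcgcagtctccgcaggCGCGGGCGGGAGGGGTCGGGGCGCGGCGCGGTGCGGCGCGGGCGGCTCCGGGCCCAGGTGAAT
GGAC and GTCC each occur 1 time in this window, and GGAC does not occur in the covered bases. A RIP peak touched the promoter windows of Ago1 and Dicer1, 2 of 9 genes, against 8.1% of protein-coding genes.

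The Argonaute genes differed among themselves. Ago2 encodes the Argonaute that can itself cut a target, and it was the 1 of the 3 with m6A peaks. It had 1 knockout peak of 200 bp (chr15:73103801-73104000) and wild-type peaks of 650 bp (chr15:73105401-73106050) and 600 bp (chr15:73106501-73107100). The knockout peak ended 1400 bp from the nearest wild-type peak. Counted from the lower coordinate of the span, the 3 peaks lay at 2.73, 4.92 and 6.21%. Its 3 RIP peaks, 200 to 226 bp wide, lay 33.1 to 59.6% along the span, the nearest 21987 bp from a wild-type m6A peak. Ago1 had 0 m6A peaks in either genotype and 4 RIP peaks, 194 to 240 bp wide. Of these, 1 lay 112.5 bp and another 924.5 bp after a listed start of the gene. Ago3, which lies next to Ago1 on chromosome 4, had no peak in its 104677 bp. The nearest peaks to Ago3 were a knockout peak at 5243 bp, a RIP peak at 5294 bp and a wild-type peak at 10043 bp outside its span.

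Among the TNRC6 scaffold genes, Tnrc6c and Tnrc6b held the widest wild-type m6A peaks of the 10 genes, of 2700 and 950 bp, and only Tnrc6a had knockout m6A peaks. Tnrc6c had 0 knockout peaks and 5 wild-type peaks, of 150, 2700, 750, 450 and 200 bp from the 5′ to the 3′ end. The nearest knockout peak lay 46211 bp outside its span. Its 2700 bp peak (chr11:117720901-117723600) ranked 10 by width in the wild-type list, and 12 protein-coding genes, Tnrc6c included, had a peak as wide or wider. It lay at 62.5% of the span. The 750, 450 and 200 bp peaks had their midpoints 2613.5, 1413.5 and 1038.5 bp from the 3′ end.

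Tnrc6b had 0 knockout peaks and 3 wild-type peaks, of 850, 950 and 450 bp. The first 2 (chr15:80879101-80879950 and chr15:80880001-80880950) were 50 bp apart and together reached over 1850 bp at 73.2 to 73.6% of the span. The third lay at 95% of the span, and the nearest knockout peak 61414 bp outside the gene. So a wide stretch inside the gene and narrower peaks near the 3′ end were found in both Tnrc6b and Tnrc6c.

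Tnrc6a had 5 knockout peaks, of 250, 200, 150, 150 and 200 bp, and 5 wild-type peaks, of 100, 450, 250, 200 and 400 bp. The knockout peaks lay at 56.7, 57, 68.6, 73.7 and 91.5% of the span from the 5′ end. The wild-type peaks lay at 85, 85.3, 85.6, 98.6 and 99.7%. No knockout peak overlapped a wild-type peak, and the nearest ones were 9550 bp apart. The wild-type peaks formed a group inside the gene and, as in Tnrc6c, a group near the 3′ end, and none was wider than 450 bp. The first knockout peak (chr7:123124151-123124400) lay 390.5 bp after the listed start of a transcript that begins inside the gene span. Neighbouring wild-type peaks at most 50 bp apart occurred in 3 of 18 neighbouring pairs of the 10 genes (16.7%, 3.58 to 41.4%), 1 in each Tnrc6 gene. The interval contains the 7.44% found over 5218 neighbouring pairs of all genes. Joining such peaks, an alternative chosen after seeing the data, left 23 in place of 26 wild-type peaks.

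**Figure D4:**
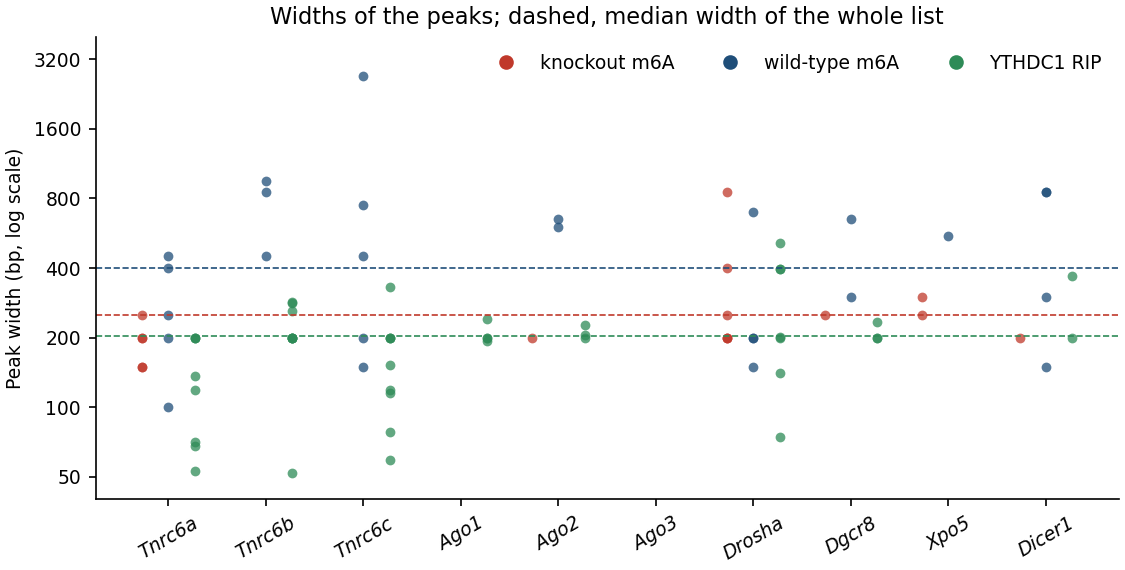
Width of each peak in bp on a log axis, by gene and list, with the median width of each whole list as a dashed line. The widest knockout peak is the 850 bp peak of Drosha, and the 2700 bp wild-type peak of Tnrc6c stands above the rest.

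The TNRC6 genes had the highest counts of YTHDC1 RIP peaks of the 10 genes, but not the highest per length. Tnrc6a had 8, Tnrc6b 9 and Tnrc6c 9 RIP peaks, and 125 of 21887 protein-coding genes had 9 or more. Per 100 kb of span these were 4.87, 3.92 and 8.2 peaks, beside 11.9 in Ago1, 8.5 in Dgcr8, 6.34 in Drosha, 3.6 in Ago2 and 3.11 in Dicer1. The RIP peaks of the TNRC6 genes were 52 to 332 bp wide. In Tnrc6c, 2 of them (chr11:117721733-117722064 and chr11:117722211-117722410) lay wholly inside the 2700 bp wild-type m6A peak and covered 532 bp of it. In Tnrc6a, 1 lay wholly inside the first knockout peak, over 200 of its 250 bp, and 1 ended 23 bp before a wild-type peak at 98.6% of the span. In Tnrc6b the nearest RIP peak lay 10263 bp from an m6A peak. Its last RIP peak (chr15:80940014-80940213) covered the whole 82-base hairpin of miR-5113, which lies on the strand of Tnrc6b. This hairpin is shown because it is the 1 of the 4 hairpins in these genes that a RIP peak covered (RefSeq, GRCm38.p6, plus strand, mature strand in capitals), with the mature strand below it, its seed in capitals.
miR-5113 hairpin (chr15:80940039-80940120): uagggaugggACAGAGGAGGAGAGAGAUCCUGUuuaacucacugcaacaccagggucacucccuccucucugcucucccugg
miR-5113: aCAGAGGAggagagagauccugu
GGAC occurs 1 time in this hairpin, and its seed was found in no other mature microRNA of the table.

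Over the 10 genes, 2 of 16 knockout m6A peaks overlapped a RIP peak (12.5%, exact 95% interval 1.55 to 38.3%), against 21.6% of all knockout peaks in gene spans. Of the 26 wild-type m6A peaks 1 did, the widest of Tnrc6c (3.85%, 0.0973 to 19.6%), against 13.3%. Both intervals contain the values over all genes. Counting a gap of up to 500 bp as shared gave 25% for knockout and 15.4% for wild-type peaks. RIP RNA was not fragmented and was total RNA, whereas the m6A samples were polyA RNA, and the part of this in the overlap was not tested.

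**Figure D5:**
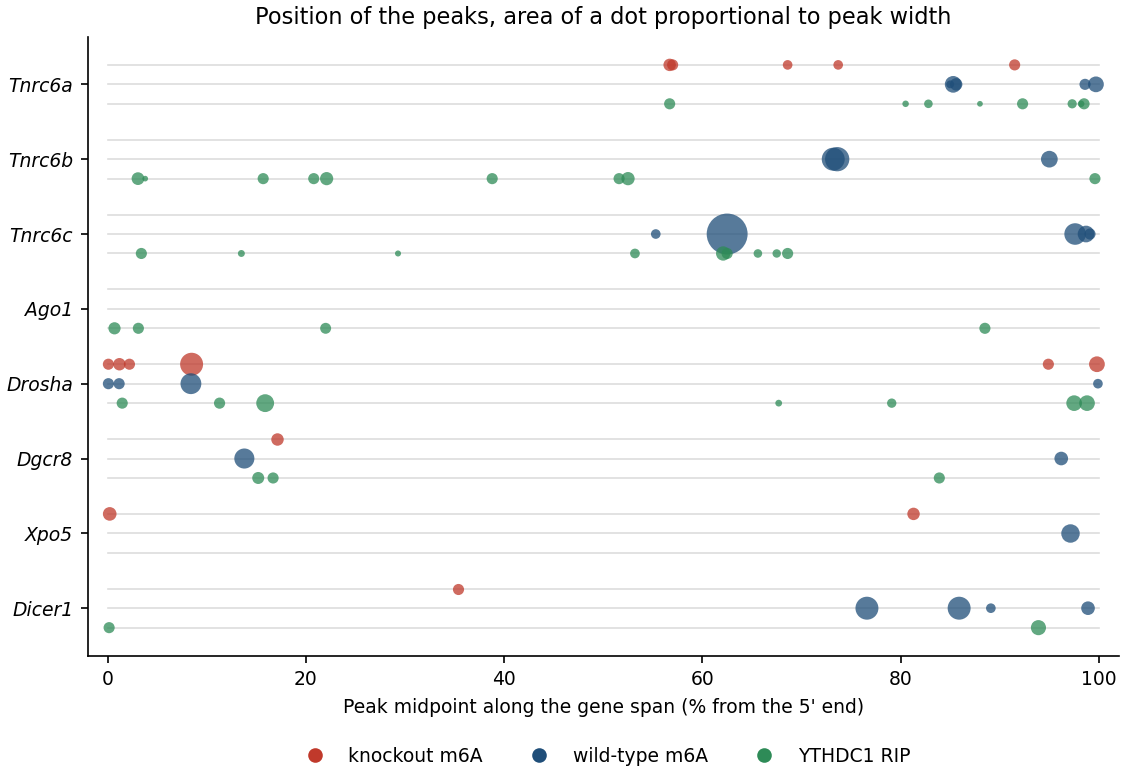
Midpoint of each peak as a percentage of the gene span from the 5′ end, for the 8 genes with a listed strand and at least 1 peak. Rows within a gene are, from the top, knockout m6A, wild-type m6A and RIP, and dot area is proportional to peak width. Outside Drosha and Dgcr8, the wild-type peaks lie at 55.3% of the span or further.

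Position along the gene was taken for the 9 of the 10 genes with a listed strand. Of all their knockout m6A peaks 5 of 15 lay in the first 10% of the span (33.3%, 11.8 to 61.6%) and 3 in the last 10% (20%, 4.33 to 48.1%). Of all their wild-type m6A peaks 3 of 24 lay in the first 10% (12.5%, 2.66 to 32.4%) and 10 in the last 10% (41.7%, 22.1 to 63.4%). The intervals of the genotypes overlap at both ends. All 3 of the wild-type peaks in the first 10% were in Drosha, and the 5 knockout peaks there were in Drosha and Xpo5. The intervals treat peaks of the same gene as separate, so these shares rest on few genes. Of their peaks found in the knockout list alone, 2 of 11 lay in the first 10% of the span (18.2%, 2.28 to 51.8%) and 2 in the last 10%. Of those found in the wild-type list alone, 0 of 20 lay in the first 10% (up to 16.8%) and 9 in the last 10% (45%, 23.1 to 68.5%). Over 17492 protein-coding genes with a strand, the first 10% held 46.3% of the knockout-only and 4.86% of the wild-type-only peaks, and the last 10% held 6.59% and 46.4%. The share of wild-type-only peaks in the last 10% was therefore close to the share over all genes. Of the knockout-only peaks, 7 of 11 lay between these ends (63.6%, 30.8 to 89.1%), against 47.1%. Most of these 7 were in Tnrc6a, at 56.7, 57, 68.6 and 73.7% of its span. RIP peaks were spread along the span, with 7 of 42 in the first 10%, 27 in the middle and 8 in the last 10%, against 19.3, 67 and 13.7% over all genes.

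The other genes of the pathway were described from a list of 61 genes in 6 roles, all matched in the gene table. A knockout m6A peak lay in 36 of them (59%, 45.7 to 71.4%), against 17.7% of all protein-coding genes, a wild-type m6A peak in 34 (55.7%, 42.4 to 68.5%), against 29.5%, and a RIP peak in 52 (85.2%, 73.8 to 93%), against 41.6%. Among protein-coding genes with a peak in any list the shares were 34.8, 57.7 and 81.5%. The wild-type and RIP values of these lie inside the intervals. A wild-type peak and no knockout peak was found in 12 (19.7%, 10.6 to 31.8%). That is close to the 18.4% over all protein-coding genes and below the 36% over those with a peak in any list. A knockout peak and no wild-type peak was found in 14 (23%, 13.2 to 35.5%), against 6.63% of all protein-coding genes. That 6.63% is 1452 genes, and its share among the 11168 with a peak in any list is larger. In the 10 machinery genes these counts were 2 and 0.

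The roles were described one by one, and a difference between them was not tested. Of 16 genes of decapping, translational repression and decay, which act after TNRC6, 7 had a wild-type and no knockout peak (43.8%, 19.8 to 70.1%), against 18.4% of protein-coding genes. Among protein-coding genes with a peak in any list the share was 36%, which is inside this interval. The reverse was found in 2 (12.5%, 1.55 to 38.3%), against 6.63% of protein-coding genes, or 1452 beside 11168 with a peak in any list. The widest wild-type peaks were in Limd1 (1550 bp) and Ajuba (1350 bp), LIM domain proteins that bind Argonaute complexes, neither with a knockout peak, and in Eif4e2, a cap-binding repressor, with 3 knockout and 3 wild-type peaks, the widest 250 and 1350 bp. Gigyf2, its partner, had 10 knockout peaks and 1 wild-type peak of 850 bp. Xrn1, the 5′ to 3′ exonuclease, had 0 knockout, 2 wild-type and 7 RIP peaks. Lsm14a had 1 knockout peak of 400 bp, which overlapped its 1 wild-type peak of 200 bp. Mov10, an Argonaute-associated helicase, had 1 knockout peak, 0 wild-type peaks and 4 RIP peaks.

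Of 10 genes made up of Ago4 and the genes that load or import Argonaute, 5 had a knockout and no wild-type peak (50%, 18.7 to 81.3%), against 6.63% of protein-coding genes. That 6.63% is 1452 genes, beside 11168 with a peak in any list. A wild-type and no knockout peak was found in 0 (up to 30.8%), against 18.4%, and the intervals overlap those of the decay genes. The 5 include the chaperones Hspa4, with 4 knockout, 0 wild-type and 9 RIP peaks, and Hsp90ab1, with 1, 0 and 2, and the co-chaperone Fkbp4, with 1, 0 and 6. Ptges3, which encodes the HSP90 co-chaperone p23, had 1 knockout peak, 1 wild-type peak and 9 RIP peaks, and Fkbp5 had 2, 2 and 6. Ago4 and the import receptor gene Ipo8 had no peak in any list, so that of the 4 Argonaute genes Ago2 alone had an m6A peak.

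Among 14 deadenylation genes, 10 had a knockout peak (71.4%, 41.9 to 91.6%), 9 a wild-type peak (64.3%, 35.1 to 87.2%) and 11 a RIP peak (78.6%, 49.2 to 95.3%), against 17.7, 29.5 and 41.6% of protein-coding genes. Among those with a peak in any list the shares were 34.8, 57.7 and 81.5%, and the wild-type and RIP values lie inside the intervals. The nuclease cofactor Pan3 had knockout peaks of at most 200 bp and a widest wild-type peak of 650 bp, and Cnot1, the scaffold of the CCR4-NOT complex, had 4 knockout peaks and 1 wild-type peak of 650 bp. Cnot4 had 5 knockout and 5 wild-type peaks, with 3 wild-type peaks overlapping a knockout peak. Pabpc1, the poly(A)-binding protein gene, had 2 knockout peaks of at most 500 bp and 0 wild-type peaks, and Cnot10 had 2 and 0.

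Of 10 Microprocessor cofactors 6 had a knockout m6A peak (60%, 26.2 to 87.8%), 5 a wild-type m6A peak (50%, 18.7 to 81.3%) and all 10 a RIP peak (from 69.2%), against 17.7, 29.5 and 41.6% of protein-coding genes. Among protein-coding genes with a peak in any list these shares were 34.8, 57.7 and 81.5%. The RNA editor gene Adar had 2 knockout and 6 wild-type peaks, the widest 250 and 900 bp, and the helicase gene Ddx17 had 0 and 4. Khsrp had 0 knockout peaks and 1 wild-type peak of 850 bp. Srrt had 5 knockout and 0 wild-type peaks, Hnrnpa1 1 and 0, and Safb2 6 and 3, while the splicing factor gene Srsf3 had no m6A peak and 8 RIP peaks. Of the export and dicing partners, Ran, whose GTP-bound protein drives exportin-5, had 2 knockout and 0 wild-type peaks, Tarbp2 had 1 and 1, and Prkra had RIP peaks alone. Among 8 regulators of precursors and microRNA turnover, the ubiquitin ligase gene Trim71 had a 300 bp knockout peak and a widest wild-type peak of 1550 bp. The widest knockout and wild-type peaks were 500 and 850 bp in Zswim8 and 150 and 550 bp in Tut7. Tut4 had 4 knockout peaks and 1 wild-type peak, and Lin28b 0 and 1 with 7 RIP peaks. These are counts of peaks in lists of unequal length, so they say nothing on the amount of m6A.

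For likeness, the covered bp in the 3 lists were compared on the log2 scale after adding 50 bp, over protein-coding genes, for the gene with the widest wild-type-only peak among the scaffold, Argonaute and processing genes. The nearest gene to Tnrc6c was Cdk13, at a distance of 0.28, with 0 bp under knockout, 3700 bp under wild-type m6A and 1265 bp under RIP peaks, against 0, 4250 and 1455 bp for Tnrc6c. Mga and Zfp704 followed at 0.42 and 0.47. For Ago2 the nearest were Togaram1 (0.11), Taf5 (0.14) and Galnt1 (0.21), and for Dicer1 Gzf1 (0.11), Myo9a (0.12) and Rab11fip3 (0.13). The measure rests on 3 lists and does not use the place of a peak in the gene.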

How the data were processed

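The authors deposited 3 peak lists with the chromosome, start and end of each peak in bp and no score. The submitters' processing notes name mm10 and, with no role, MACS2 2.1.2, SAMtools 1.9, HISAT2 2.2.0, STAR 2.7, Trim Galore 0.6.4 and bcl2fastq. For the peak threshold and for pooling of replicates nothing is stated, and read depth is unknown. Samples were grouped by title.

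Starts were turned to count from 1. A peak went to the span holding its midpoint (RefSeq, GRCm38.p6), protein-coding genes first and then the shortest. Peaks overlapped with at least 1 shared bp. Strand and promoter sequence came from RefSeq promoter windows and hairpins from RefSeq microRNAs. Shares have exact Clopper-Pearson 95% intervals. No test was run, since the lists hold no replicate values. The genes, the pathway list and the naming rule were chosen with earlier results of these data known. All 10 genes were named, and of each pathway role up to 3 genes by widest wild-type peak, 2 by widest knockout peak and 2 by number of RIP peaks. Ago4, Ipo8, and the hosts of the closing observations were named after their values were seen. Overlap and assignment were tested on intervals with known answers. Python 3.11.15, pandas 2.3.3 and SciPy 1.17.1 were used.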

Additional observations from a re-analysis of the deposited data

How the results depend on the processing

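Of 41 alternative values for 10 counts and shares of the machinery genes, 36 stayed within 1.5 times the count or within the interval of the share. Many of the 36 had little or no room to change, so their number is a weak check. No peak touched another gene span, and the other span rules gave the main values. The widest RIP peak in these genes was 513 bp, under the limit of 1000 bp. No knockout or RIP neighbours were at most 50 bp apart. The other 5 came from keeping only peaks at or above the median width of their list, by construction with fewer peaks. Then the genes with a wild-type and no knockout m6A peak numbered 4, the knockout peaks 7, the wild-type peaks 15 and the RIP peaks 12, and the share of knockout peaks overlapping a RIP peak was 0%. Joining peaks at most 50 bp apart was chosen after seeing the data. The share of genes with a knockout peak was 11.4% over coding and long non-coding genes and 34.8% over coding genes with a peak in any list, with 19 and 57.7% for wild-type peaks, 28.7 and 81.5% for RIP peaks, and 11.9 and 36% for wild-type without knockout peaks; among coding genes as long as Ago1 or longer the last was 24%. No paired analysis was possible because the lists carry no value per replicate, and for the same reason no sample could be left out. Without read depth, a missing peak does not show that m6A or binding was absent.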

Other observations

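Of the 19 hairpins that overlapped a wild-type m6A peak, 2 are those of Dgcr8. Among the other peaks were one of 1650 bp in Mex3a, an RNA-binding protein gene, over the hairpin of miR-1905, and one of 1150 bp in Zscan26 over that of miR-1896. The hairpins of miR-7653 and miR-8114 lay under peaks of both genotypes, and the knockout peaks there were 250 and 300 bp wide, against 350 and 250 bp in wild-type cells. No hairpin lay under peaks of all 3 lists. The lists carry no strand, so whether these peaks come from the RNA that holds the hairpin was not tested.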
